A study of Mus musculus with 14 samples.

Results

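The genes studied here encode 4 families of cell surface cues. They are the Eph receptors, the ephrins, the semaphorins and the plexins, taken as all protein-coding mouse genes of the GENCODE M21 annotation whose symbols begin with Epha or Ephb, Efna or Efnb, Sema, or Plxn. The families hold 51 genes, of 21951 protein-coding genes in the annotation, with 14 Eph receptors, 8 ephrins, 20 semaphorins and 9 plexins. Accessible regions were given to the gene with the nearest transcription start site (TSS) within 50 kb. By this rule 365 regions belonged to the families, of 84402 regions near any protein-coding TSS and 124598 regions in all. Eph receptors had 109 regions, ephrins 54, semaphorins 147 and plexins 55. At least 1 region lay near 50 of the 51 genes, and none was called near Sema3a, which encodes a secreted semaphorin. The nearest TSS is a rule of assignment and does not show which gene a region acts on.

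Chromatin accessibility was measured by ATAC-seq, in which a transposase inserts sequencing adapters into open DNA, in KH2 mouse embryonic stem (ES) cells, for which the labels give the strain C57BL/6. All groups carried a doxycycline (Dox)-responsive transgene for GATA6 and DsRed2 and came from 1 line. Cells at 0 h grew in serum-free 2i medium with LIF and never received Dox, whereas cells at 2, 4, 8, 16, 24 and 48 h were moved to serum medium with LIF and Dox at 1 µg/mL, which was withdrawn after 12 h. Each time point had 2 libraries of 50000 cells, and per the study's reporting summary replicate experiments were done independently. The move to serum coincides with induction, so the effects of medium and of GATA6 cannot be told apart in any comparison with 0 h.

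Eph receptors are receptor tyrosine kinases that are activated by ephrins on neighbouring cells, and the ephrin-bearing cell can signal in return. Ephrin-A ligands are held by a lipid anchor, while ephrin-B ligands span the membrane. Semaphorins are secreted or membrane-bound ligands of the plexins, whose cytoplasmic part acts on small GTPases and through them on the cytoskeleton and on adhesion. Both systems are known for guiding axons and vessels and for keeping cells of different identity apart at tissue boundaries. In the blastocyst, primitive endoderm (PrE) and epiblast (Epi) cells first lie intermixed and then sort into separate layers.

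The lists hold 55588 to 65073 peaks per library, with the fewest in a 48 h library and the most in a 16 h library. Replicate 2 had more peaks than replicate 1 at each time point. Read depth is unknown from peak lists, so a missing peak may be an open site below that library's calling limit. A peak in a mixed culture also cannot tell the share of cells that are open from the openness of each cell. Of 12 PrE marker genes, such as Gata4 and Sox17, 59 of 157 regions (37.6%) were gained at 48 h and 16 (10.2%) were lost. These genes varied, with 7 gained and 1 lost region at Sox17 and 6 and 4 at Lamc1. Regions near 10 Epi and ES cell markers were gained in 31 and lost in 31 of 162 cases (19.1% each). Near 10 markers of other lineages, 11 of 76 regions (14.5%) were gained and 15 (19.7%) were lost. Over all regions near a protein-coding TSS, 14.1% were gained and 14.4% lost.

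A region was called gained at a time point when both of its libraries had a peak there and neither 0 h library did, and lost in the reverse case. The sequences that follow show what such regions look like, with 1 gained and 1 lost region per family, each among the 3 of its family and class with the smallest trend p and outside exons. The first of these by trend is shown, except for semaphorins, where the lost region is the second and no gained one is shown. Each is the central 200 bp on the forward strand of GRCm38, with matches to the GATA motif in capitals. GATA factors recognise a short motif, searched here in 4 forms on both strands. These were AGATAA, with AGATAG as the form that ends in G, and TGATAA, with TGATAG as the form that ends in G.
Epha2, gained, 21766 bp upstream, chr4:141279375-141279574: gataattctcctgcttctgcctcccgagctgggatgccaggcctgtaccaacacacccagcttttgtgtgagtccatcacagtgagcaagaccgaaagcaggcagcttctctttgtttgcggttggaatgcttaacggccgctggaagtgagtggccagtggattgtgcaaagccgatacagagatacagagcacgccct
Epha2, lost, 18513 bp upstream, chr4:141282628-141282827: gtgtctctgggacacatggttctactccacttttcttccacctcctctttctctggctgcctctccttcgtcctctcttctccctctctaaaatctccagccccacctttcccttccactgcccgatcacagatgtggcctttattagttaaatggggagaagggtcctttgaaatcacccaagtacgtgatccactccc
Efna2, gained, 13863 bp downstream, chr10:80193246-80193445: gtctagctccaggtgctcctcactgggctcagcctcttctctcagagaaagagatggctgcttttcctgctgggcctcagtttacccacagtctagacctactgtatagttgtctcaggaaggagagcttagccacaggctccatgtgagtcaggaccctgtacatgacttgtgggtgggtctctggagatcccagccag
Efnb2, lost, 13724 bp upstream, chr8:8674867-8675066: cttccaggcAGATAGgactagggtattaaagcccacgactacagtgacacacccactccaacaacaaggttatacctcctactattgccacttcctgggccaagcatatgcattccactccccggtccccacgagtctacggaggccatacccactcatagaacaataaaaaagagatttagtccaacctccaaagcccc
Sema4b, lost, 2109 bp downstream, chr7:80188851-80189050: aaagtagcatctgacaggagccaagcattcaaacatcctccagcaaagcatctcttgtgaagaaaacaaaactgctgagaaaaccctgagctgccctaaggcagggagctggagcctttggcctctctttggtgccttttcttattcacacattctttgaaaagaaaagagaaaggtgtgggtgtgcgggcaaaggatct
Plxnd1, gained, 4377 bp upstream, chr6:115999283-115999482: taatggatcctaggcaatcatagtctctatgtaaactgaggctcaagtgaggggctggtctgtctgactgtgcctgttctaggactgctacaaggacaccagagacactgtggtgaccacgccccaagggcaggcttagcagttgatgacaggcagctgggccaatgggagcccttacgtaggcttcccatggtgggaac
Plxna2, lost, 7987 bp downstream, chr1:194626106-194626305: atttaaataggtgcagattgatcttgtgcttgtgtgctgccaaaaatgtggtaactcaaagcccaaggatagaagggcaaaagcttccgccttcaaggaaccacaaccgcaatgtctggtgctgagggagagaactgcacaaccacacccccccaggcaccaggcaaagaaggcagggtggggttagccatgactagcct
Among these, the lost Efnb2 region held 1 match, and the other 6 windows held 0 matches. A second set, chosen after the values were seen, shows the gained region of each family with the most matches under the same limits.
Epha4, gained, 45969 bp downstream, chr1:77469020-77469219: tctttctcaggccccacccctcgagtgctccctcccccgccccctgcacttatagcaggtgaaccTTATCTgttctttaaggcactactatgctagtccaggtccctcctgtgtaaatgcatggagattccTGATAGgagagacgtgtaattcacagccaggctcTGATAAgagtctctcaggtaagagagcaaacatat
Efna4, gained, 1206 bp downstream, chr3:89336723-89336922: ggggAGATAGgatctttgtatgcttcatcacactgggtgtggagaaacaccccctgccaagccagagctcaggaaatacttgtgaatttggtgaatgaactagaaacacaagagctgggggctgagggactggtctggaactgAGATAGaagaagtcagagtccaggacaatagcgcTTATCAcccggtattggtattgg
Sema4b, gained, 14534 bp upstream, chr7:80172208-80172407: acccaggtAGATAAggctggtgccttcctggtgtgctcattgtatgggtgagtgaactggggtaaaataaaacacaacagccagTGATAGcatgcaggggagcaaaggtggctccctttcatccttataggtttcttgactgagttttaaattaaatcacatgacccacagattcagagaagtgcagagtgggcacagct
Plxnc1, gained, 12603 bp downstream, chr10:94932133-94932332: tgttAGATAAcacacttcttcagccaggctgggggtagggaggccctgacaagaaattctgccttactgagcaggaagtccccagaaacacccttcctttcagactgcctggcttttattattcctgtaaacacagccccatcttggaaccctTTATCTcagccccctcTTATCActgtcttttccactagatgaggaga
The Epha4, Efna4 and Plxnc1 windows held 3 matches each and the Sema4b window held 2. A match is a run of letters and not a measured binding site.

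Over the course of induction the families gained more regions than they lost at each time point. All regions near a protein-coding TSS did so too from 2 h to 24 h, but not at 48 h. At 48 h, 62 of 365 family regions (17.0%) were gained, against 14.1% of all regions near a protein-coding TSS. In the same libraries 37 (10.1%) were lost, against 14.4% of all regions. A further 84 regions (23.0%) had a peak in both libraries of 0 h and both of 48 h and are termed kept, close to the 23.4% of all regions. The share lost therefore stood further from that of all regions than the share gained did. No p-value is given for these counts, because an exact two-sided test of 2 libraries against 2 cannot go below 0.333.

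The earlier time points gave the same order with smaller counts, an order that all regions shared. The 2 h libraries gained 25 regions (6.85%), against 7.88% of all regions, and lost 18 (4.93%), against 5.61%. Gains at 4 h numbered 32 (8.77%), against 9.12% of all regions, and losses 14 (3.84%), against 6.34%. Gains at 8 h numbered 42 (11.5%), against 10.3%, and losses 24 (6.58%), against 8.27%. At 16 h, 51 family regions were gained against 12.6%, and 18 (4.93%) were lost against 8.0%. At 24 h, 39 (10.7%) were gained against 11.4%, and 23 (6.3%) were lost against 11.0%. The share gained thus lay within 3 percentage points of that of all regions at each time point, while the share lost stood further below it from 16 h on than before.

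**Figure D1:**
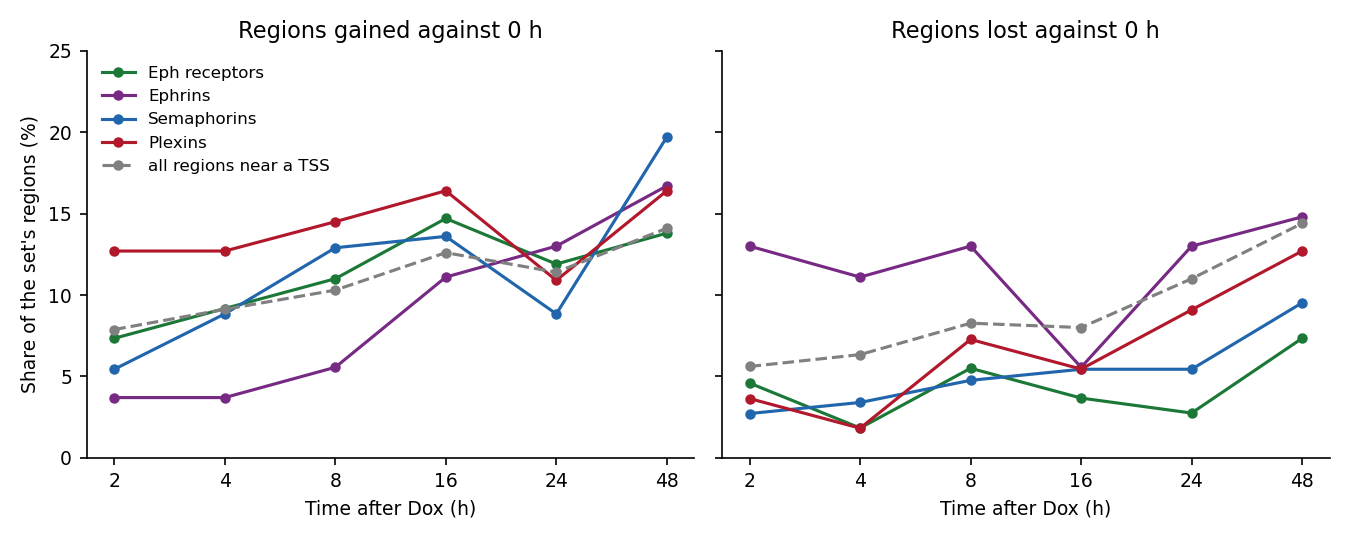
Share of the regions of each family that were gained (left) or lost (right) against 0 h, in percent of the family's regions, by time after Dox, with all 84402 regions near a protein-coding TSS as a dashed grey line. Each point is a count over 2 libraries against 2, without an error. Losses of ephrin regions stand at 13.0% at 2 h, while those of semaphorins stand at 2.72%.

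The 4 families differed in size and in timing. At 48 h, Eph receptors had 15 regions gained and 8 lost, ephrins 9 and 8, semaphorins 29 and 14, and plexins 9 and 7. Semaphorin regions were thus gained in 19.7% and lost in 9.52% of cases, and Eph receptor regions in 13.8% and 7.34%. Ephrin losses at 48 h (14.8%) and plexin losses (12.7%) lay near the 14.4% of all regions. Plexins had 7 of 55 regions (12.7%) gained at 2 h, against 7.88% of all regions. Of these 7, 6 were open only in transition, and 0 of the 9 plexin regions gained at 48 h were called in both libraries at 2 h. Ephrins had more losses than gains at first. By 2 h, 7 of 54 ephrin regions (13.0%) were lost and 2 (3.7%) gained, against 5.61% and 7.88% of all regions. By 8 h 7 (13.0%) were lost and 3 (5.56%) gained, against 8.27% and 10.3%. The differences between families were not tested, since regions of 1 gene are not replicates.

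The number of ephrin regions with a peak fell below the 0 h libraries and then rose above them. The 0 h libraries had peaks in 27 and 31 of the 54 ephrin regions. The libraries of 2 h had 24 and 21, those of 4 h had 20 each, and those of 8 h had 21 and 22. All 6 of these libraries lay below both 0 h libraries. At 16 h the counts were 32 and 34, above both 0 h libraries, and at 24 h (27 and 31) and 48 h (29 and 31) they overlapped with 0 h. The other families had no such dip. Eph receptor regions were called 47 and 42 times at 0 h and 55 and 63 times at 16 h, and semaphorin regions 57 and 65 times at 0 h and 74 and 75 times at 48 h. Plexin regions were called 23 times in each 0 h library and 26 to 34 times in the libraries of 2 to 16 h. Over all regions near a TSS, the mean share called was 47.1% at 0 h, 49.1% at 4 h and 52.5% at 16 h, so the high count at 16 h was shared by regions in general.

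**Figure D2:**
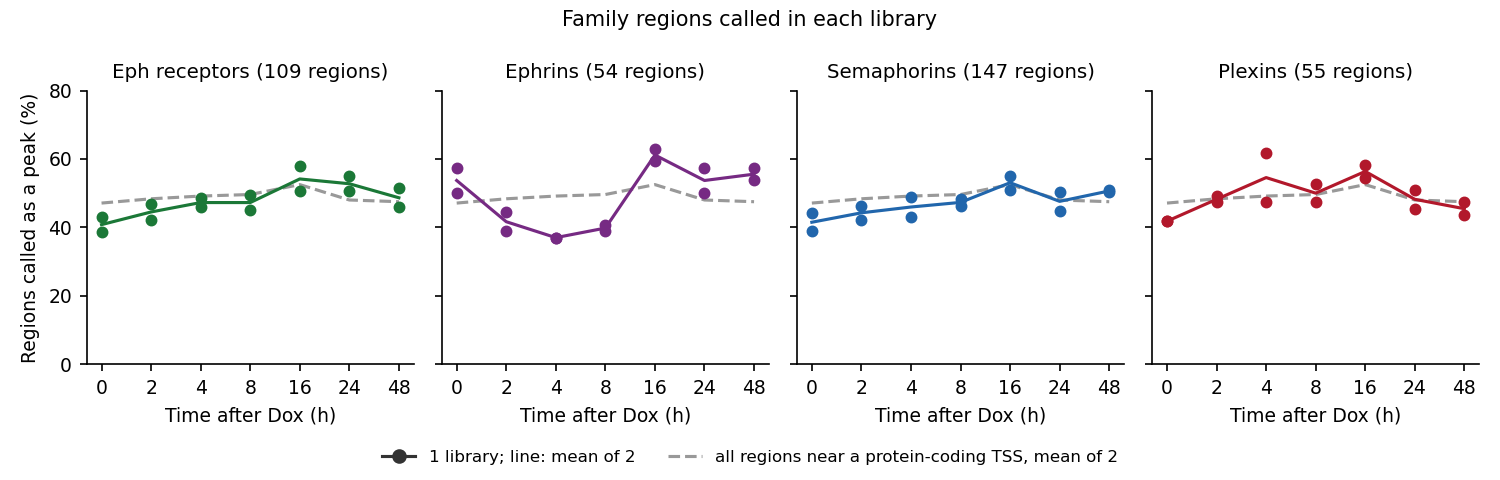
Share of each family's regions called as a peak in each of the 14 libraries, by time after Dox, with a point per library, a line through the mean of 2 libraries and all regions near a protein-coding TSS dashed in grey. The ephrin panel falls from 27 and 31 called regions at 0 h to 20 in both 4 h libraries and reaches 32 and 34 at 16 h.

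To use all 14 libraries at once, each region called in 2 to 12 libraries was tested for a trend with an exact permutation test, two-sided, on the time ranks of the calling libraries. Benjamini-Hochberg adjustment covered 79559 regions of the genome. Of 211 family regions tested, 41 (19.4%) rose over time, against 12.5% of all regions tested near a TSS, and 12 (5.69%) fell, against 10.6%. Eph receptors had 11 rising and 1 falling region of 56 tested, and ephrins 6 and 2 of 35. Semaphorins had 17 and 5 of 86, and plexins 7 and 4 of 34. The 41 rising regions were all among the 62 gained at 48 h and the 12 falling regions all among the 37 lost, which is not independent evidence, since the test and the classes read the same calls. A region called in only 2 or in 12 libraries could not pass here, because its smallest possible exact p is 0.022 and the largest that passed the adjustment was 0.011. This held for 15 of the gained and 11 of the lost regions. The smallest adjusted p that any region of the genome reached was 0.013.

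Peaks at gained regions were rare in the early libraries. Of the 62 regions gained at 48 h, 6.45% on average had a peak in a 2 h library, rising to 18.5% (4 h), 31.5% (8 h), 46.0% (16 h) and 60.5% (24 h). The same shares over all gained regions near a TSS were 15.5%, 26.4%, 37.5%, 50.9% and 64.2%. The family shares were lower at each of the 5 time points and the gap was widest at 2 h. Both libraries first had a peak at 2 h in 2 regions, at 4 h in 6, at 8 h in 10, at 16 h in 8, at 24 h in 7, and not before 48 h in 29. The 2 h regions were 3.23% of the gained ones, against 11.3% over all gained regions, and those not called before 48 h were 46.8%, against 36.5%. These differences were not tested. Of the 37 lost regions, 15 (40.5%) already had no peak in either library at 2 h, against 31.4% of all lost regions. Loss was not steady, since the share of lost regions with a peak was 37.8% at 8 h, 54.1% at 16 h and 35.1% at 24 h. Over all lost regions these shares were 41.0%, 42.1% and 21.3%.

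In the comparison of 48 h with 2 h both groups were in serum with LIF and had received Dox. Cells at 2 h had been in serum for 2 h alone and were still in Dox, so slower effects of the medium and effects of Dox withdrawal cannot be told apart in it. Against 2 h, 62 family regions (17.0%) were gained, where 13.2% of all regions were, and 41 (11.2%) were lost, where 14.9% were. Of the 62 regions gained against 0 h, 56 were gained against 2 h too. Of the 37 regions lost against 0 h, 18 were lost against 2 h as well. Over all regions near a protein-coding TSS, 9561 of 11910 regions gained against 0 h were also gained against 2 h. For losses the count was 6371 of 12124. These overlaps were not tested. For ephrins the losses went from 8 against 0 h to 3 against 2 h, and for plexins from 7 to 11.

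Changes were spread over many genes. Gains without losses were found at 14 of the 50 genes with a region (28.0%), losses without gains at 6 (12.0%) and both at 17 (34.0%). Over 17806 protein-coding genes with a region the shares were 20.0%, 21.2% and 20.4%. Gains of 3 or more regions were found at Epha2, Epha4, Ephb2, Ephb3, Sema4c, Sema4g, Sema6a and Plxnc1. Losses of 3 or more were found at Efnb2, Sema4b, Sema5b, Sema6c and Plxna2. These were 8 and 5 of the 50 genes. Over the 17806 genes, 1164 had 3 or more gains and 1153 had 3 or more losses. No family gene was on both lists, but the overlap over all genes was not counted, so nothing is read from this. The 50 family genes had 365 regions and the 17806 genes had 84402, so family genes had more regions on average. A gene with more regions has more chances of a gain or a loss. The shares and counts of genes were not adjusted for the number of regions, so they cannot show an excess at family genes.

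**Figure D3:**
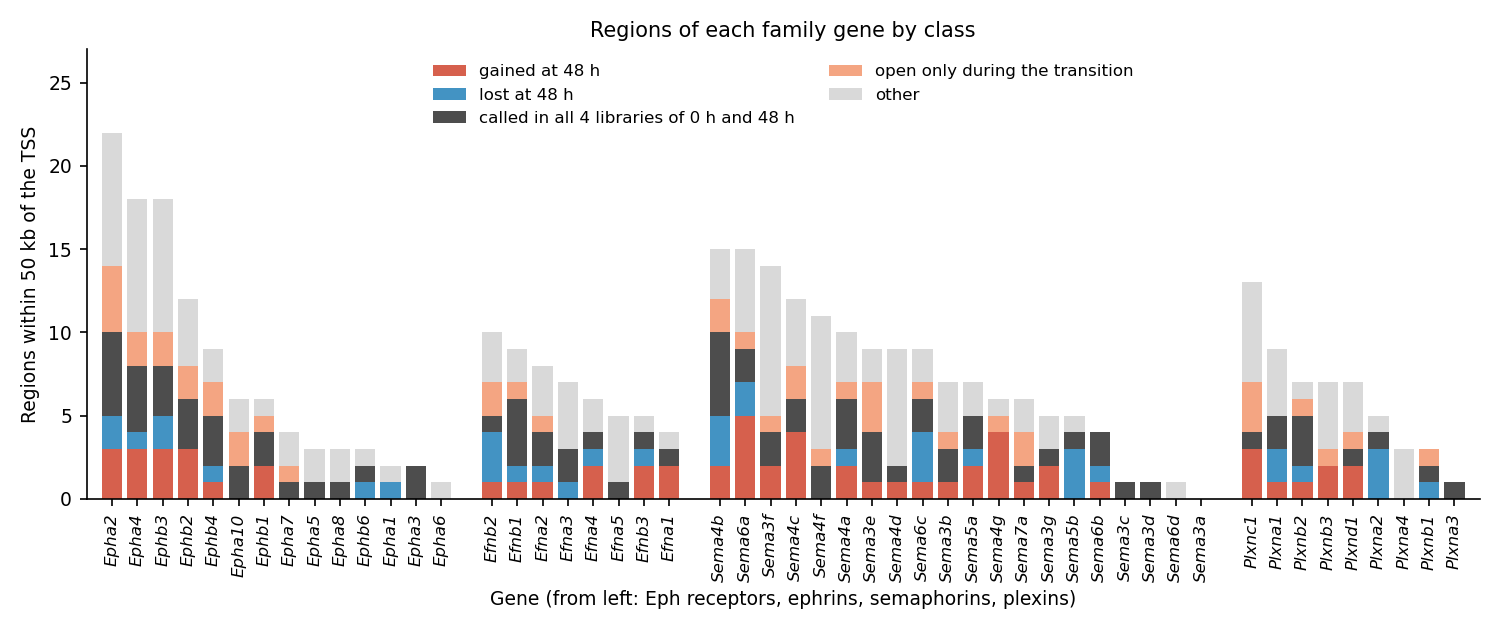
Number of regions within 50 kb of the TSS for each of the 51 genes, ordered by family and by number of regions, with bars split by class. Epha2 has the most regions, 22, and Sema6a the most gained regions, 5, while Sema3a has none.

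Among the Eph receptors, Epha2, a receptor for ephrin-A ligands, had 22 regions, the most of any family gene, with 3 gained, 2 lost and 4 open only between 0 h and 48 h. Its gained region 21766 bp upstream (chr4:141279234-141279715, outside protein-coding genes) had no peak in any library of 0, 2, 4 and 8 h. Peaks were ranked by their score within a library, so that a percentile of 100 is the highest. The trend test read only which libraries called a region, so each adjusted p below is for calls and not for percentiles. The Epha2 peak stood at percentiles 21.3 and 30.7 at 16 h, 42.1 and 56.0 at 24 h, and 68.3 and 73.9 at 48 h. These percentiles did not overlap between successive time points, which was not tested. The calls of this region rose over time (adjusted p = 0.013, exact permutation test). The lost Epha2 region 18513 bp upstream (chr4:141282416-141283038) went the other way. This region stood at percentiles 81.0 and 68.3 at 0 h, 5.27 and 35.7 at 2 h, and 37.9 and 39.6 at 4 h. At 8 h 1 library had a peak, at 7.84, and no later library had one (adjusted p = 0.013, exact permutation test). Its region 15883 bp upstream had peaks in both libraries of 8 h and of 16 h, in 1 library each of 2, 4 and 24 h, and in none of 0 h and 48 h.

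Epha4, which binds ephrins of both classes, had 3 gained and 1 lost region among 18. Its intronic region 38741 bp downstream (chr1:77475887-77476808), with 2 GATA matches, was first seen in 1 of 2 libraries at 4 h, at percentile 19.9. It stood at 66.3 and 59.1 at 8 h, 87.4 and 88.5 at 16 h, 93.3 and 91.4 at 24 h, and 95.5 and 94.5 at 48 h. Its calls rose over time (adjusted p = 0.013, exact permutation test). A second intronic region, 45969 bp downstream and shown above with 3 matches, was called in all libraries from 4 h on. Its percentile was highest at 16 h, at 75.5 and 76.5, and stood at 36.1 and 18.2 at 48 h. The Epha4 promoter, in contrast, was called in all 14 libraries.

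Ephb2 and Ephb3, receptors for ephrin-B ligands, had 3 gained regions each, and lost 0 and 2. Ephb2 gained a region 6652 bp upstream (chr4:136842274-136843007), with 1 library called at 8 h, at percentile 3.95. From 16 h on both libraries were called (adjusted p = 0.013, exact permutation test). Their percentiles lay between 41.1 and 58.2, with no order among the later time points. Epha1 lost a strong region 7732 bp upstream (chr6:42380547-42381453), whose percentiles went from 93.9 and 97.2 at 0 h to 70.2 and 73.2 at 16 h and to 26.2 and 8.12 at 24 h. Neither 48 h library had a peak there. With 12 libraries called it did not pass the test (adjusted p = 0.0541, exact permutation test). Epha3, Epha5, Epha6, Epha7, Epha8 and Epha10 had 0 gained and 0 lost regions at 48 h. Epha7, however, had an intronic region 10549 bp downstream (chr4:28823362-28823998), with 3 GATA matches, that was open only in transition. Its percentiles were 20.7 and 56.8 at 4 h, 63.7 in both libraries at 8 h, and 48.9 and 57.3 at 16 h, with 1 peak at 24 h and none at 0, 2 and 48 h.

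Among the ephrins, Efna4 held the strongest gained region. The region 1206 bp downstream, in an intron (chr3:89336360-89337285), had no peak at 0 h in either library. At 2 h it already stood at percentiles 94.6 and 95.8, and the 10 later libraries lay between 98.0 and 99.8. The 12 libraries made after the addition of Dox and the move to serum thus all had a peak and the 2 made before had none, which cannot be told apart from the change of medium (adjusted p = 0.0541, exact permutation test, the smallest that 12 called libraries allow). This region reaches within 1 kb of the TSS, so it is counted below as a gained promoter region. The other promoter region of Efna4 was called in all 14 libraries. A weaker gained region of Efna4, 6883 bp downstream (chr3:89331010-89331280), had no peak up to 16 h and stood at percentiles 13.7 and 5.31 at 24 h and 40.0 and 23.1 at 48 h (adjusted p = 0.013, exact permutation test). Efna1, Efna3 and Efna4, all ephrin-A ligands, lie next to each other on chromosome 3, so regions between them were divided by distance alone. Efna3, Efna4 and Efnb1 are on the study's own list of PrE genes, which was drawn from other data.

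Efna1 gained its promoter. The region over its TSS (chr3:89280683-89281528) was called in 1 of 2 libraries at 16 h, at percentile 18.9, then at 26.5 and 10.7 at 24 h and at 47.3 and 38.6 at 48 h (adjusted p = 0.013, exact permutation test). A second region, 1017 bp upstream, was called only at 48 h. Efnb3, a transmembrane ligand, gained its promoter region at 48 h, at percentiles 44.2 and 28.2, after 1 weak peak at 16 h. A region 1370 bp upstream of Efnb3 had peaks only in the 0 h libraries, at the low percentiles of 4.02 and 23.0.

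Efnb2, a transmembrane ligand known from arterial endothelium, had 3 lost regions, 1 gained and 2 open only in transition. Its lost region 13724 bp upstream lies in an intron of the neighbouring gene Arglu1 (chr8:8674691-8675241). It went from percentiles of 59.0 and 70.0 at 0 h to 23.4 and 11.5 at 2 h, and had no peak in any of the 10 later libraries (adjusted p = 0.013, exact permutation test). The lost region in its own intron, 11351 bp downstream (chr8:8649566-8650217), stood at 77.1 and 85.6 at 0 h, and at 2 h 1 library had a peak, at 27.7 (adjusted p = 0.0451, exact permutation test). This call held in 7 of 17 alternatives and was lost, for example, without 0 h replicate 1 (adjusted p = 0.0856, exact permutation test). The Efnb2 promoter was called in all 14 libraries. Another kind of change was seen 32017 bp downstream, where both libraries had a peak at 8, 16 and 24 h, between 35.0 and 58.2, and neither did at 48 h. Among the 8 lost ephrin regions, 6 had no peak in either library at 2 h and the other 2 had none at 4 h, although 4 of the 8 had a peak in both libraries at 16 h again.

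Among the semaphorins, Sema6a, a transmembrane ligand of class A plexins, had 5 gained regions, all of which rose over time, and 2 lost regions. One of the 5 lay upstream of the gene and the others in its introns, 26685 to 44460 bp downstream of the TSS. The lost intronic region 10159 bp downstream stood at percentiles 70.9 and 83.1 at 0 h, 79.4 and 76.1 at 2 h, and 58.7 and 50.7 at 4 h. At 8 h 1 library had a weak peak, at 10.9, and later libraries had none (adjusted p = 0.013, exact permutation test). The promoter of Sema6a was called in all 14 libraries.

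Sema4g, a membrane-bound class 4 semaphorin, had 4 gained regions among 6, and none of its regions was called in both 0 h libraries. The strongest lay 2237 bp downstream and overlapped an exon (chr19:44991039-44991638). No peak was seen there up to 8 h. The percentiles were 70.3 and 67.0 at 16 h, 93.6 and 93.5 at 24 h, and 93.6 and 89.6 at 48 h (adjusted p = 0.013, exact permutation test). The other 3 lay together within 2631 to 3796 bp upstream. Sema4c, of the same class, also had 4 gained and 0 lost regions, among 12.

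Sema4b held regions of each kind, with 2 gained, 3 lost, 5 kept and 2 open only in transition among 15. The gained region 14534 bp upstream (chr7:80171843-80172771) appeared at 4 h at percentiles 39.8 and 36.2, was at 24.7 and 23.0 at 8 h, and rose to 93.6 and 93.3 at 16 h, with 88.6 and 89.7 at 48 h (adjusted p = 0.013, exact permutation test). The lost region 2109 bp downstream (chr7:80188716-80189184) was higher at 2 h, with 66.7 and 72.1, than at 0 h, with 24.5 and 37.7, and had no peak from 4 h on (adjusted p = 0.013, exact permutation test). The region 19860 bp upstream (chr7:80166729-80167234) was absent at 0 h, stood between 81.6 and 91.4 in all 6 libraries of 2, 4 and 8 h, fell to 39.4 and 52.4 at 16 h, and had no peak at 24 h and 48 h. Sema4b thus had, side by side, an upstream region with peaks only from 2 h to 16 h and another with peaks from 4 h to 48 h.

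Sema5b, a transmembrane semaphorin with thrombospondin repeats, had 3 lost and 0 gained regions, all 3 in an intron 44519 to 47781 bp downstream. The middle one (chr16:35587780-35588342) kept percentiles between 71.3 and 79.4 in the libraries of 0 h and 2 h, was at 61.6 and 49.0 at 4 h, and weakened to 13.1 and 6.68 at 16 h before it was lost at 24 h (adjusted p = 0.013, exact permutation test). Sema6c had 3 lost and 1 gained region. The gained one, 385 bp upstream, was called in 1 library at 2 h and in both from 8 h on, beside a region over the TSS that was called in all 14. Sema3g, a secreted class 3 semaphorin, gained a region over its TSS at 48 h, at percentiles 38.8 and 49.3. Sema3c and Sema3d had only a promoter region each, called in all 14 libraries. Sema3f, also of class 3, gained a region 12806 bp upstream that stood at 76.8 and 75.8 at 2 h, peaked between 90.1 and 97.1 from 4 to 24 h, and was at 70.3 and 62.5 at 48 h, and this one was named after its values were seen.

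Among the plexins, Plxnc1, the receptor of Sema7a, had 3 gained, 0 lost and 3 transient regions among 13. The gained intronic region 12603 bp downstream, shown above with 3 GATA matches, was called in 1 library at 4 h and in all later ones, at 65.5 and 48.6 at 48 h. A region at the promoter, 883 bp downstream, was called in both libraries only at 48 h, at the low percentiles of 11.6 and 6.11. The region 33656 bp upstream (chr10:94978212-94978771) was open only in transition, with a peak in all 10 libraries from 2 to 24 h. It reached 93.3 and 89.1 at 16 h and had none at 0 h and 48 h. Sema7a, the lipid-anchored ligand of Plxnc1, had 1 gained, 0 lost and 2 transient regions.

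Plxnd1, which binds Sema3e directly and is known from vessel patterning, had 2 gained and 0 lost regions, both gained ones upstream. The one 4377 bp upstream (chr6:115999168-115999596) rose from 8.49 and 10.5 at 16 h to 40.1 and 48.0 at 24 h and to 63.7 and 67.7 at 48 h. The one 7698 bp upstream (chr6:116002316-116003090) was called from 4 h, was highest at 16 h, at 92.9 and 90.1, and stood at 21.6 and 15.7 at 48 h. Both rose by the test of calls (adjusted p = 0.013 each, exact permutation test), although the score rank of the second fell after 16 h. Sema3e had 1 gained, 0 lost and 3 transient regions.

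Plxna1, a receptor for class 3 semaphorins together with neuropilins, gained its promoter region (chr6:89362534-89363578), which was called in both libraries from 8 h on, between 9.6 and 48.5 (adjusted p = 0.013, exact permutation test). It also lost 2 regions upstream, in introns of the neighbour Chchd6. Plxna2, a receptor of Sema6a, had 3 lost and 0 gained regions among 5. Its intronic region 7987 bp downstream (chr1:194625818-194626593) went from 76.8 and 75.6 at 0 h to 25.2 and 31.8 at 2 h, had 1 peak of 24.4 at 4 h and none later (adjusted p = 0.013, exact permutation test). Sema6a and Plxna2, a ligand and its receptor, thus had 5 gained with 2 lost and 0 gained with 3 lost regions. Plxna4, the other receptor of Sema6a, had 3 regions, of which 0 were gained and 0 lost. Plxnb1, the receptor of Sema4d, lost a region 1670 bp downstream between 16 h and 48 h (adjusted p = 0.0451, exact permutation test). That call held in 7 of 18 alternatives and was lost, for example, without 48 h replicate 2 (adjusted p = 0.0932, exact permutation test). Plxnb2, a receptor for class 4 semaphorins, gained 1 region and lost 1. The Plxnb3 promoter was called in both libraries only at 16 h, at the low percentiles of 6.74 and 4.21.

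**Figure D4:**
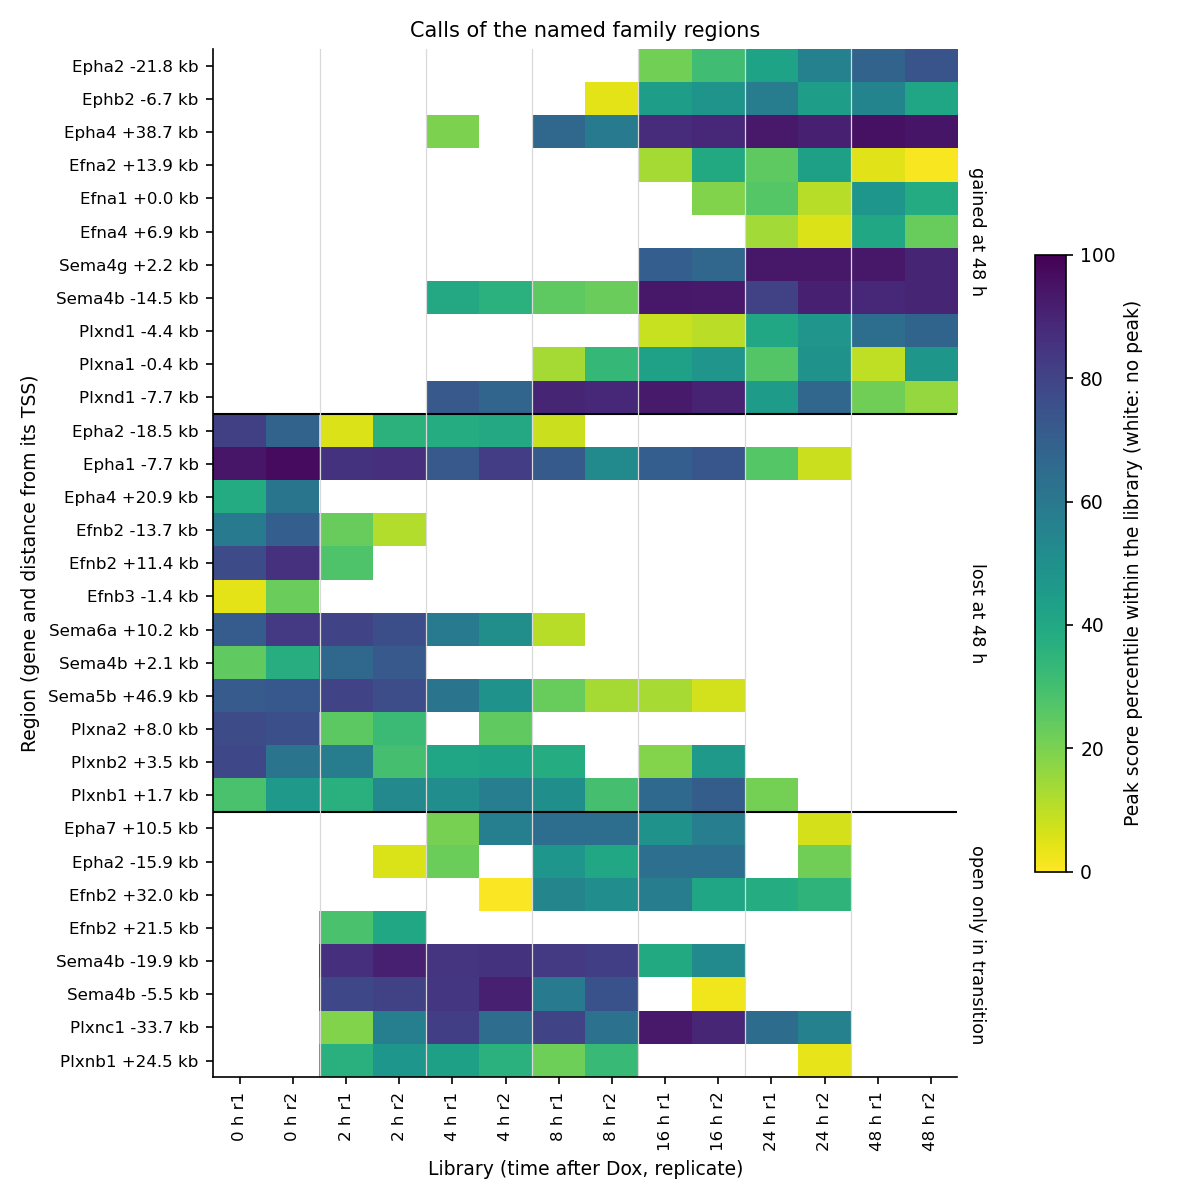
Score percentile of the peak in each of the 14 libraries for 31 of the 32 named regions, which are up to 3 gained, 3 lost and 2 transient regions per family, with white where a library had no peak. Replicates of a time point stand side by side. The Epha4 region at +38.7 kb is at 95.5 and 94.5 at 48 h, and the Sema4b region 19860 bp upstream is filled only from 2 h to 16 h.

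Changes were fewer at promoters than at distal regions, and no family promoter region was lost. The families had 56 promoter regions, which overlap the 1 kb on either side of a TSS, at 44 of 51 genes. At 48 h 8 (14.3%) were gained, against 8.52% of all promoter regions, and 0 were lost, against 4.58%. A further 31 (55.4%) were kept, close to the 58.2% of all promoter regions. The 8 gained regions lay at Efna1 (2 regions), Efna4, Efnb3, Plxna1, Plxnc1, Sema3g and Sema6c. Of the family promoter regions, 28 (50.0%) were called in all 14 libraries, close to the 51.5% of all promoter regions. They lay at 25 genes. These were 8 Eph receptors, 3 ephrins, 11 semaphorins and 3 plexins, and they included Epha7, whose promoter lay between percentiles 87.3 and 96.7. No region lay within 1 kb of the TSS of 7 genes, Epha8, Plxna2, Sema3a, Sema3b, Sema4a, Sema4g and Sema6b, where each gene has 1 annotated TSS here and other start sites were not used. Of the 309 distal regions, 54 (17.5%) were gained and 37 (12.0%) lost, where 15.6% and 16.9% of all distal regions were.

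**Figure D5:**
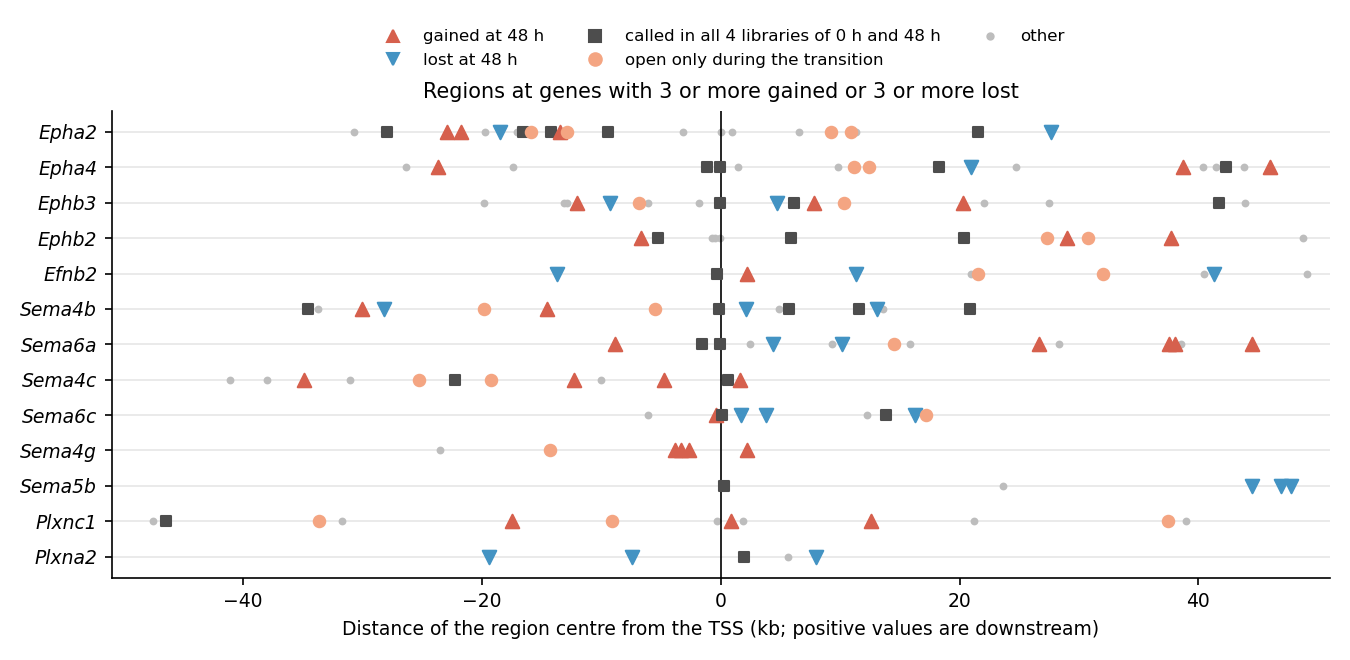
Distance in kb of each region's centre from the TSS of its gene, positive downstream, for the 13 genes with 3 or more gained or 3 or more lost regions, with a symbol per region by class. Regions over the TSS are kept or fall in no class at most genes. Gained and lost regions lie far from it at Sema5b, where the 3 lost regions lie 44519 to 47781 bp downstream. Sema6c and Plxnc1, in contrast, have gained promoter regions.

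Distances and widths set the classes apart only in part. Gained regions lay at a median of 12350 bp from the TSS and lost regions at 10159 bp, while kept regions lay at 5690 bp. Over all regions near a TSS, the medians were 13154, 15363 and 1046 bp. Kept family regions were thus farther from the TSS than kept regions in general. Gained regions were 458 bp wide at the median, lost ones 551 bp and kept ones 768 bp, and they stood at median score percentiles of 34.8, 43.3 and 60.5. Of the 62 gained regions, 28 lay outside protein-coding genes, 20 in introns and 14 over an exon. Of the 37 lost regions, 18 lay in introns.

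Regions open only during the transition were common. A region was put in this class when no library of 0 h or 48 h had a peak there and both libraries of at least 1 time point between did. The families had 43 such regions (11.8%), against 12.4% of all regions, with 16 at Eph receptors, 4 at ephrins, 16 at semaphorins and 7 at plexins. Of these, 19 (44.2%) were called in both libraries by 2 h, close to the 47.0% of all such regions, and 6 of the 7 plexin regions were among them. The reverse, a region kept at 48 h that both libraries lacked at some time in between, was found 4 times (1.1%), against 1.48% of all regions, near Ephb4, Efnb1, Efnb3 and Plxna1. The Efnb1 region, 22039 bp upstream, had no peak in either library at 2 h, and the Efnb3 region, 2614 bp downstream, had none at 8 h.

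The GATA motif was searched in the central 200 bp of each region. The central 200 bp of 26 of the 62 gained regions (41.9%) held at least 1 match, against 54.4% of all gained regions near a TSS, a difference that was not tested. In lost regions the count was 7 of 37 (18.9%), against 20.9%, and in kept regions 13 of 84 (15.5%), against 16.4%. Regions open only in transition held a match in 20 of 43 cases (46.5%), against 50.9%. Within the families and over all regions alike, the share was higher in gained than in lost and kept regions, which was not tested either. By family, the gained regions with a match were 7 of 15 at Eph receptors, 2 of 9 at ephrins, 12 of 29 at semaphorins and 5 of 9 at plexins. The motif was found in 100 of the 365 family regions (27.4%) and in 32.2% of all regions near a TSS.

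Partners and effectors of these families had both gained and lost regions. The shares over all regions were 14.1% gained and 14.4% lost, and of those tested for trend 12.5% rose and 10.6% fell. Co-receptors and surface partners such as the neuropilins, Met and Kdr, a list of 12 genes, had 51 regions, of which 9 (17.6%) were gained and 5 (9.8%) lost. Of their 26 regions tested for trend, 3 rose and 3 fell. Nrp1 had 1 gained and 0 lost regions and Nrp2, the other neuropilin, 2 gained and 3 lost. Met, a receptor tyrosine kinase that can associate with class B plexins, had 3 of its 5 regions gained. Cytoplasmic effectors, a list of 41 genes, had 279 regions, with 46 (16.5%) gained and 38 (13.6%) lost. Of their 182 regions tested for trend, 21 rose and 18 fell. The most gained regions on this list were 7 of 11 at Mical2, an enzyme that oxidises actin. Nrp1, Nrp2, Met and Mical2 were named after their values were seen.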

How the data were processed

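Accessible chromatin was profiled in 14 ATAC-seq libraries, 2 at each of 7 time points. The authors deposited 1 peak list per library, without pooling replicates. Lists were made with the ENCODE ATAC-seq pipeline and, per the file names, filtered by an irreproducible discovery rate of 0.05 on pseudoreplicates and against a blacklist. The labels name mm10/GRCm38, and 0 of 839049 peaks ended past a chromosome of that build. Each deposited peak has 1 unnamed score on an unstated scale, used here only to rank peaks within a library. The lists hold no read counts, so depth is unknown, no interval that needs it is given, and the study's own read-based test was not used here. Stronger filtering or lower depth would remove weak peaks first.

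Peaks that overlapped by 1 bp or more were merged into regions (median width 489 bp), and a library was taken to call a region when its peaks covered 1 bp or more of it. Regions went to the protein-coding gene of GENCODE M21 with the nearest TSS within 50 kb of their centre. Percentiles are those of the highest peak of a region among all peaks of that library. The exact permutation test of trend was tested on simulated data. Alternatives covered peak thresholds, merging, distance, start sites, looser classes, a replicate block and leaving out each library. Deviations from the time-point means of libraries with the same replicate number had correlations between -0.0152 and 0.0124 over 21 pairs of time points. These correlations gave no sign that the numbers pair libraries. They cannot exclude it, since replicate 2 had more peaks than replicate 1 at each time point. Sequences were read from the GRCm38.p6 genome, and none was taken from chromosome 18. The analysis used Python 3.11.15, numpy 2.4.6, pandas 2.3.3 and scipy 1.17.1.

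Named genes were those with 3 or more regions gained or 3 or more lost at 48 h, or with a promoter region that was gained, lost or transient, and the gene without a region. Named regions were, per family, up to 3 gained and 3 lost with the smallest trend p, ties going to the higher mean percentile, and up to 2 transient regions called at the most time points, of which 1 is not reported here. Families, gene lists and rules were chosen with earlier results of these data known.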

Additional observations from a re-analysis of the deposited data

Results flagged for a closer look

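The number of ephrin regions with a peak moved in opposite directions at different time points against the same 0 h libraries. The mean of 2 libraries minus the mean of the 0 h libraries was -6.5 regions for 2 h, -9.0 for 4 h, -7.5 for 8 h and 4.0 for 16 h. Both libraries lay below both 0 h libraries at 2, 4 and 8 h and above both at 16 h. The difference between these time points was not tested, and they share the 0 h libraries.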

How the results depend on the processing

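Counts of regions depended most on the distance limit and on how strictly a change was defined. With a limit of 20 kb, 15 family regions were gained at 2 h, and 10, 8, 14, 10 and 14 were lost at 2, 4, 8, 16 and 24 h. Under that limit 5 Eph receptor regions were gained and 5 lost at 48 h, 9 semaphorin regions were lost, 28 family regions were open and 1 was closed only in transition, and 27 rose. When a call in 1 or more library against neither was enough, 48, 56, 64, 83 and 78 regions were gained at 2, 4, 8, 16 and 24 h and 47, 43, 52, 41, 49 and 68 were lost at 2, 4, 8, 16, 24 and 48 h. At 48 h this definition gave 28 gained and 17 lost Eph receptor regions and 13 lost ephrin, 26 lost semaphorin and 12 lost plexin regions, with 92 open and 15 closed only in transition. Requiring peaks over 50% or more of a region gave 11 closed only in transition. With the 50000 highest peaks per library 23 regions fell. Without the 0 h libraries 15 rose. With the replicate block 7 fell, and whether the numbers pair libraries is not known. Searching the whole region, which was done for family regions alone, the motif was found in 59.7% of gained and 37.8% of lost regions. Against 2 h in place of 0 h, an alternative chosen after seeing the data, 3 ephrin and 11 plexin regions were lost at 48 h. Merging peaks up to 150 bp apart and using all protein-coding transcript starts left each of these counts within 1.5 times. Apart from these fixed directions, the cause of the moves was not tested.

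With 1 library left out at a time, 28 to 42, 36 to 48, 45 to 56, 59 to 74, 46 to 62 and 68 to 77 family regions were gained at 2, 4, 8, 16, 24 and 48 h, and 23 to 34, 20 to 31, 28 to 41, 20 to 31, 25 to 39 and 40 to 55 were lost. Leaving out a library loosens the rules for gained, lost and transient regions, so their counts can only stay or rise. Such shifts therefore do not show that a count rests on a particular library. At 48 h, 16 to 24 Eph receptor, 9 to 12 ephrin, 30 to 35 semaphorin and 10 to 12 plexin regions were gained, and 9 to 15, 8 to 12, 16 to 23 and 7 to 10 were lost. Between 44 and 56 were open and between 4 and 9 closed only in transition, 23 to 53 rose and 7 to 17 fell, and the motif was in 39.0 to 42.1% of gained and 14.5 to 21.7% of lost regions. Losses moved by over 1.5 times without 0 h replicate 1 (34, 31, 41, 31 and 39 at 2, 4, 8, 16 and 24 h, and 23 for semaphorins at 48 h), without 0 h replicate 2 (31, 26 and 28 at 2, 4 and 16 h, and 15 for Eph receptors at 48 h) and without 4 h replicate 2 (26 at 4 h). Gains did so without 2 h replicate 1 (42 at 2 h), without 24 h replicate 1 (62 at 24 h) and without 48 h replicate 1 (24 for Eph receptors). Regions that rose numbered 23 and 24 without either 4 h library, 25 and 26 without either 8 h library and 26 without 16 h replicate 2, and 7 fell without any 1 of the 4 h, 8 h and 16 h libraries. Regions closed only in transition numbered 7 to 9 without either 0 h library, 2 h replicate 2 or either 4 h library.

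Of the 24 named gained and lost regions, none reversed its direction. Of these, 10 passed the trend test under all 18 alternatives run for each, among them regions of Epha2 (2 regions), Ephb2, Efna1, Efna4 (6883 bp downstream), Sema4g, Sema5b, Sema6a and Plxnd1 (4377 bp upstream). Without the 0 h libraries 8 regions no longer passed, at adjusted p between 0.0605 and 0.0622 (exact permutation test), at Epha4, Efnb2, Sema4b (2 regions), Plxnd1, Plxna2, Plxnb2 and Plxnb1. With 50% or more covered, the Efna2, Plxna1 and Plxnd1 (7698 bp upstream) regions no longer passed, at adjusted p of 0.227, 0.0591 and 0.8 (exact permutation test). The Efna2 region also did not with the 50000 highest peaks (0.25), nor the Plxnb2 region without either 24 h library (0.059 and 0.0591). The Efnb2 region 11351 bp downstream passed in 7 of 17 alternatives. It did not with the block (0.0555), without either 0 h library (0.0856 and 0.0855), without 2 h replicate 1 (0.0582) or without any 1 of the 4 h, 8 h and 16 h libraries (0.0541 to 0.0555, exact permutation test). The Plxnb1 region passed in 7 of 18. It did not with the block (0.0555), without any 1 of the 4 h, 8 h and 16 h libraries (0.0541 to 0.0555), without 24 h replicate 2 (0.0603) or without either 48 h library (0.0925 and 0.0932, exact permutation test). Of the regions at 0.0541, Epha1 passed in 4 of 16 (0.0388 and 0.0389 without either 0 h library, 0.0409 with the 50000 highest peaks and 0.0496 with 50% covered). The Epha4 region 20920 bp downstream passed in 3 of 15 (0.041 and 0.0411 without either 48 h library, 0.0477 with the 50000 highest peaks) and the Efnb3 region in 2 of 14 (0.041 and 0.0411 without either 48 h library, exact permutation test).

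A comparison of 2 libraries with 2 cannot go below an exact p of 0.333, and in the analysis as reported a region called in only 2 or in 12 libraries cannot pass the trend test. Peak calls depend on depth, which the lists do not give.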
